A study of Mus musculus with 4 samples.

Results

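The genes examined here were 10 genes of the excitatory synapse, chosen by symbol with earlier results of these data known. All were found in the deposited matrix, out of 19090 genes. They were the AMPA receptor subunit genes Gria1, Gria2 and Gria3, the NMDA receptor subunit genes Grin1, Grin2a, Grin2b and Grin2d, the postsynaptic scaffold gene Dlg4, the kinase gene Camk2a and the vesicular glutamate transporter gene Slc17a7. All 10 had a mean of at least 5 CPM (UMIs scaled to a common library total) over the sections and stayed among the 11033 genes that did.

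The assay was Visium, where tissue is laid on an array of barcoded spots and the RNA of each small patch, often from more than 1 cell, is counted per spot. There were 4 hemisphere sections of fresh-frozen brain, 10 µm thick, with 1 section for each genotype. The mice were males of 9 months, and the sections came from levels between 1 mm in front of bregma and -2 mm. The 5xFAD-Dp16 mouse carried both alterations below, the 5xFAD mouse carried transgenes of human origin bearing mutations known from familial Alzheimer's disease, the Dp16 mouse carried a duplicated segment of chromosome 16, and the Wild-type mouse was C57BL/6J. The 5xFAD transgenes are driven by the neuronal Thy1 promoter and lead to amyloid plaques. The Dp16 segment corresponds to much of the human chromosome that is present in excess in Down syndrome. None of the 10 genes lies in that segment, which was taken here as chr16:75540514-97962627 (from Lipi to Zbtb21, GRCm38). Grin2a is on the same chromosome but outside it, at chr16:9567901-9996083. With a single section per genotype, differences between genotypes could not be checked against replicates, and no test was run.

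Excitatory transmission in the forebrain starts when glutamate, loaded into vesicles by transporters such as the Slc17a7 product VGLUT1, reaches AMPA and NMDA receptors across the cleft. AMPA receptors carry the fast current, and the edited subunit encoded by Gria2 makes them nearly impermeable to calcium. NMDA receptors need the obligatory subunit encoded by Grin1 together with a subunit from the Grin2 family, which sets their kinetics, and they admit the calcium that activates the kinase encoded by Camk2a. The Dlg4 product PSD-95 holds receptors and signalling enzymes at the postsynaptic density. Loss of excitatory synapses is a well-known feature of Alzheimer's disease and of amyloid mouse models.

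The promoters of 2 genes are shown because these genes marked opposite parts of the sections below, Grin2d the thalamus and hypothalamus and Slc17a7 the cortex and hippocampus, and both lie on chromosome 7. Each sequence runs from 250 bases before to 50 bases after a transcription start listed by RefSeq on GRCm38.p6, at chr7:45866632-45866931 on the minus strand for Grin2d and at chr7:45163671-45163970 on the plus strand for Slc17a7. The Grin2d gene spans chr7:45831883-45871194, so its window surrounds an internal start and not the outer 5' end of the gene. The Slc17a7 window surrounds the outer 5' end of that gene, at 45163921. The windows are thus not alike in position. Capitals mark a GC box, the letters GGGCGG on either strand (CCGCCC when read on the other).
Grin2d: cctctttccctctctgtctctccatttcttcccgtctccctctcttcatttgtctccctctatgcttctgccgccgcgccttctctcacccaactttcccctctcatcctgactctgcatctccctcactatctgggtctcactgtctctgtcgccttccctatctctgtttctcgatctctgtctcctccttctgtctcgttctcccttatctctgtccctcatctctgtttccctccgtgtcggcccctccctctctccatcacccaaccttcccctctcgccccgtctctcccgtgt
Slc17a7: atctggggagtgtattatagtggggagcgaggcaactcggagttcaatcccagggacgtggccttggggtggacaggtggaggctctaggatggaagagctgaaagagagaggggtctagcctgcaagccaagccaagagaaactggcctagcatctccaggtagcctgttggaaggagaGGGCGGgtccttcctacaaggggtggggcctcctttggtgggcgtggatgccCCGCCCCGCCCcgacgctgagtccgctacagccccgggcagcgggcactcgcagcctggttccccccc
The Grin2d window held 0 GC boxes and 56% G and C, and the Slc17a7 window held 3 GC boxes, the last pair overlapping, and 63.7% G and C. Of 32851 promoters in the same table, 35.7% held at least 1 GC box and the median G and C content was 52.7%. Neither window held the E-box CACGTG, present in 7.15% of promoters, or the cyclic AMP response element TGACGTCA, present in 1.79%. The matches describe these letters only. Of the other genes, Gria2, Grin1 and Dlg4 also had entries.

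The sections held 2941, 2347, 2540 and 2721 spots in the 5xFAD-Dp16, 5xFAD, Dp16 and Wild-type brains, with between 26049860 and 36461389 unique molecular identifiers (UMIs, counted molecules) each. The median spot held between 9404 and 11639 UMIs, of which 14.3 to 16.7% were mitochondrial. The 10549 spots used 3164 distinct barcodes, because arrays share their barcode set, and spots were told apart by section as well. The sections did not hold the same tissue: summed choroid plexus markers, 6 genes, reached 14787.5 CPM in the 5xFAD-Dp16, 19364 CPM in the 5xFAD, 32604 CPM in the Dp16 and 6912 CPM in the Wild-type section. Expression clusters 12 and 13 held 72.7 to 82.3% of these choroid plexus UMIs. Neuron markers differed less, with 4277, 4377, 4230 and 4580 CPM summed over 9 genes in the 5xFAD-Dp16, 5xFAD, Dp16 and Wild-type sections. Inhibitory neuron markers summed to 1171, 1097, 1420 and 1508 CPM and microglia markers to 991, 1082, 383 and 439 CPM in the same order. No gene of these 4 marker lists was at 0 in any section, which at this depth says little about the tissue.

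The regional pattern of each gene was described first, over the 12 region labels that held at least 30 spots in every section. Label abbreviations are kept as deposited. Gria1 was the subunit gene of the hippocampus: its level there was 246.0, 306, 285 and 343 CPM in the 5xFAD-Dp16, 5xFAD, Dp16 and Wild-type sections. Every section's hippocampus lay above every section's value in the next region, Cortex CTXsp, where levels ran between 146 and 199 CPM. In the neocortical labels Cortex AUC, PTL, RSP, IL and SSp, Gria1 stayed between 58.0 and 110.0 CPM. Gria2, by contrast, was spread evenly over cortex and hippocampus, with 225, 281, 297 and 333 CPM in Cortex OLF and 229, 274, 253 and 347 CPM in the hippocampus of the 5xFAD-Dp16, 5xFAD, Dp16 and Wild-type sections. Its 8 highest regions overlapped their neighbours in the order, and a gap came only below CNU, whose lowest section was at 166 CPM while no section exceeded 112 CPM in FB. Gria3 was highest in Cortex OLF, at 128, 165, 169 and 188 CPM in the same section order, and reached only 61% of that mean in the hippocampus, where it lay between 85.4 and 114 CPM. No neighbouring pair in the Gria3 order was free of overlap.

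Among the NMDA receptor genes, Grin1, the gene of the obligatory subunit, was the most evenly spread. It had 287, 303, 315 and 330 CPM in Cortex AUC and 268, 270, 248 and 298 CPM in the thalamus of the 5xFAD-Dp16, 5xFAD, Dp16 and Wild-type sections, and it still had 162, 192, 194 and 205 CPM in the hypothalamus. Grin2a, whose product gives fast-closing receptors that predominate in the adult forebrain, was highest in the hippocampus at 144, 201, 183 and 206 CPM in that section order. All 4 hippocampal values lay above all 4 of the next region, Cortex AUC, between 96.9 and 129 CPM, and in the hypothalamus Grin2a was at 10% of its hippocampal mean. Grin2b, whose product gives slower receptors that dominate early in development, was highest in Cortex OLF at 48.2, 76.5, 73.2 and 85.8 CPM and almost equal in the hippocampus, at 56.3, 75.2, 65.7 and 74.1 CPM in the same sections. In the thalamus it kept 70% of its highest regional mean, against 29% for Grin2a.

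The balance of Grin2a and Grin2b UMIs differed by region within every section. Of the UMIs of both genes in the hippocampus, Grin2a made up 71.8, 72.8, 73.6 and 73.5% in the 5xFAD-Dp16, 5xFAD, Dp16 and Wild-type sections, and in the thalamus 49.2, 47.7, 51.8 and 57.1%. The exact binomial (Clopper-Pearson) 95% intervals of these shares, which like all intervals here cover counting error only, did not overlap between the hippocampus and the thalamus in any section. In Cortex OLF the share was 57.9, 52.1 and 54.2% in the 5xFAD-Dp16, 5xFAD and Dp16 sections, and the Wild-type section had 257 UMIs of each gene. Over the whole section it was 63.6% in the 5xFAD-Dp16 section (61.9 to 65.2%), 60.3% in the 5xFAD section (58.7 to 62.0%), 62.7% in the Dp16 section (61.0 to 64.3%) and 65.0% in the Wild-type section (63.6 to 66.3%). The gap between these regions was wider than the spread among genotypes.

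Grin2d, whose product forms slowly deactivating NMDA receptors and is known mainly from the diencephalon, brainstem and interneurons, had a pattern of its own. Its level was 21.3, 20.3, 33.5 and 35.9 CPM in the thalamus and 14.7, 15.0, 22.7 and 24.2 CPM in the hypothalamus of the 5xFAD-Dp16, 5xFAD, Dp16 and Wild-type sections. The other 10 regions stayed at or below 12.02 CPM in every section, and no value there reached the lowest hypothalamic one. In CNU of the 5xFAD section Grin2d had 0 UMIs, which with a floor of 3 counts allows up to 9.05 CPM, no lower than the 8.45 CPM of the Wild-type section. Across the 48 combinations of region and section, the log2 levels of Grin2d correlated with those of the other genes at Pearson r between -0.13 and 0.48, while Camk2a correlated with Gria2 at 0.94. These points share their sections and their sequencing depth, and the correlations describe the pattern only.

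Dlg4 was the flattest of the 10, with no region under 35.5% of its highest regional mean. Its level in Cortex AUC was 89.4, 93.6, 69.4 and 99.95 CPM in the 5xFAD-Dp16, 5xFAD, Dp16 and Wild-type sections, in the thalamus 84.4, 81.6, 67.3 and 84.1 CPM, and no neighbouring pair in its order was free of overlap. Camk2a was a gene of the cerebral mantle, with 185, 218, 232 and 346 CPM in the hippocampus, 146, 223, 215 and 236 CPM in Cortex OLF, and only 21.7, 19.4, 19.5 and 33.9 CPM in the hypothalamus of those sections. Slc17a7 had the steepest gradient; thalamic and hypothalamic neurons are known to use mostly the related transporter gene Slc17a6. It had 612, 744, 622 and 747 CPM in Cortex AUC and 6.49, 14.1, 9.39 and 25.8 CPM in the hypothalamus in that order. In CNU it read 57.4, 48.3, 262 and 36.2 CPM, so under that label the Dp16 section stood apart from the other sections. The highest region of each of the 10 genes was the same when regions of at least 100 spots were used and when levels were averaged over spots.

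**Figure D1:**
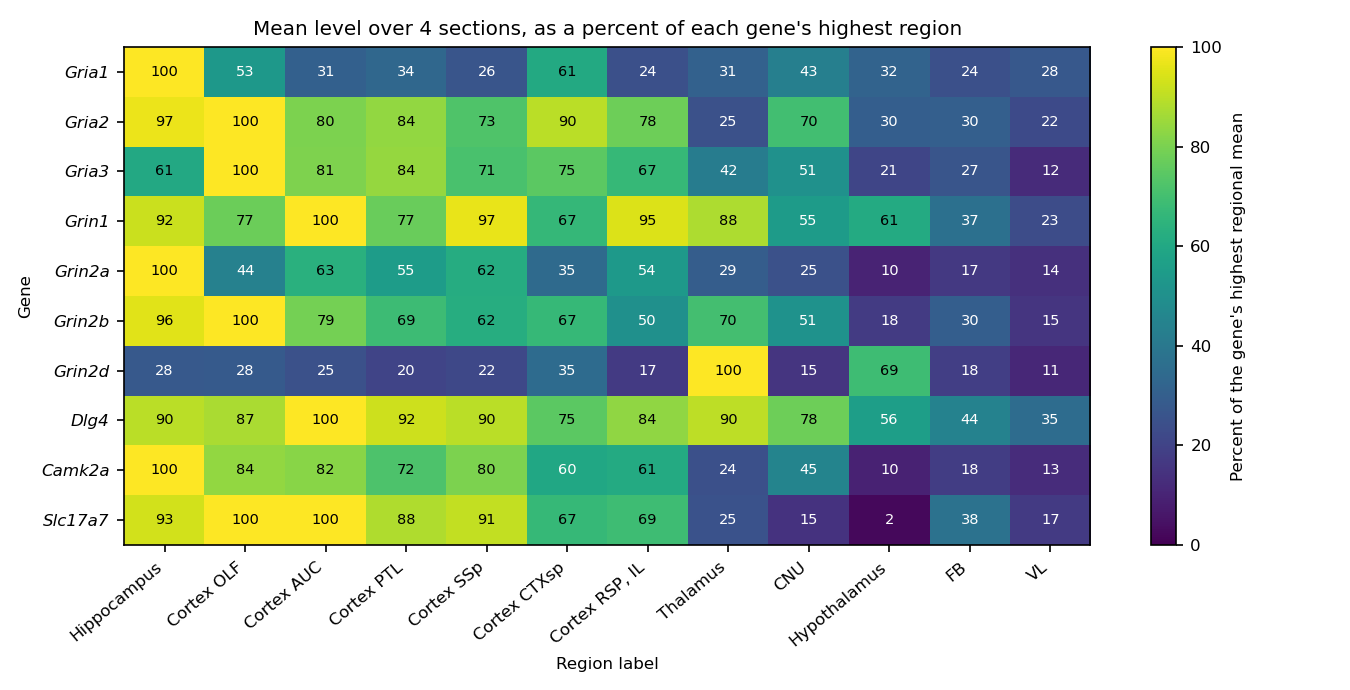
Mean level over the 4 sections of each gene (rows) in each of 12 regions (columns), as a percent of the gene's highest regional mean, written in the cells. Grin2d stands at 100% in the thalamus and 69% in the hypothalamus, where Slc17a7 stands at 2%, and Gria1 stands at no more than 61% outside the hippocampus.

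Likeness to other genes over these 48 points was ranked by Pearson r of log2(CPM + 1). The 3 genes most like Camk2a were Enc1 (0.96), Wasf1 (0.95) and Chn1 (0.95), and Chn1 was also among those of Grin2a (0.93), beside Syne1 (0.93). For Gria1 the 3 were Cnih2 (0.87), which encodes an AMPA receptor auxiliary protein, Scn3b (0.84) and Pfkl (0.83). Gria2 was most like Rasgef1a (0.95), Arf3 (0.94) and Mrtfb (0.94), while Psd3 (0.94) and Zfp365 (0.93) were among the genes most like Gria3, and Cyfip2 (0.95) and Jph3 (0.94) among those most like Grin1. The genes most like Grin2b included Nell2 (0.92) and Fam49a (0.90), and those most like Dlg4 included Zfr (0.91) and Cx3cl1 (0.90). Slc17a7 was most like Cck (0.92), Rtn4r (0.91) and Sv2b (0.90), which encodes a synaptic vesicle protein. The likeness was loosest for Grin2d, with Disp2 (0.80), Sdc3 (0.79) and Tmem132c (0.79).

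Within the hippocampus, finer labels separated layers, with between 8 and 54 spots per layer and section. These labels are not spelled out in the sources used here; in usual hippocampal naming sp is the layer of principal cell bodies, and so, sr, slm and mo are layers of dendrites and axons. Camk2a, whose mRNA is known to be carried into dendrites, was higher in sr, slm and mo than in the cell body layers, relative to all genes, but not in every section in so. It had 206, 252, 254 and 428 CPM in CA1_sr of the 5xFAD-Dp16, 5xFAD, Dp16 and Wild-type sections, against 125, 146, 240.0 and 293 CPM in CA1_sp. In CA1_slm it had 247, 240, 244 and 508 CPM in the same order. Ratios below are relative log2 ratios, that is the log2 ratio of CPM minus the median log2 ratio of all genes measured, and a gene is called higher or lower past 1.2-fold (0.263 on this scale). The relative log2 ratio of CA1_sr over CA1_sp for Camk2a was 1.23 (95% interval 0.75 to 1.72), 1.32 (0.77 to 1.87), 0.70 (0.22 to 1.17) and 1.16 (0.81 to 1.51) in the 5xFAD-Dp16, 5xFAD, Dp16 and Wild-type sections. The subtracted median was between -0.62 and -0.51, so part of these ratios lies in the lower CPM of most genes in CA1_sr. In the Dp16 section, with 254 against 240.0 CPM, most of the 0.70 is the subtracted median of -0.61. The same holds for CA1_slm over CA1_sp of that section, at 0.86 with a subtracted median of -0.83.

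In CA1_so, by contrast, Camk2a had 118, 229, 173 and 256 CPM in the 5xFAD-Dp16, 5xFAD, Dp16 and Wild-type sections, with relative log2 ratios over CA1_sp of 0.29 (-0.31 to 0.89), 0.92 (0.33 to 1.51), -0.24 (-0.71 to 0.22) and 0.04 (-0.35 to 0.43). In CA3_so it had 179.5, 114, 177 and 323 CPM, against 188, 228, 206 and 279 CPM in CA3_sp, and the 5xFAD section was the low one at -0.73 (-1.75 to 0.20).

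Camk2a was the only one of the 10 genes higher past 1.2-fold in all 4 sections in CA1_sr over CA1_sp, and 13% of 10550 genes were so called. It was also the only one of the 10 in CA1_slm over CA1_sp, against 14.2% of all genes, in CA3_sr over CA3_sp, against 8.97%, and in DG_mo over DG_sp, against 10.7%. A count of 1 in 10 is close to these shares, and nothing is read from it about the 10 genes. In CA1_so over CA1_sp and in CA3_so over CA3_sp none of the 10 was higher in all 4 sections, against 10.3% and 10.7% of all genes. The weakest of these was CA3 of the 5xFAD section, with 218 CPM in CA3_sr and 228 CPM in CA3_sp and a ratio of 0.36 (-0.37 to 1.08). For other genes the cell body layer held more. Gria1 had 219, 290, 227 and 240 CPM in CA1_sr of the 5xFAD-Dp16, 5xFAD, Dp16 and Wild-type sections, against 416, 549, 477 and 503 CPM in CA1_sp. Gria1, Gria3, Grin1 and Slc17a7 were lower past 1.2-fold in CA1_sr over CA1_sp in all 4 sections, against 9.53% of all genes. In CA1_slm over CA1_sp 7 of the 10 were lower in all 4 sections, against 11.3%, namely the AMPA receptor genes, Dlg4, Grin1, Grin2a and Grin2b. Some of these calls rest on few UMIs. In CA1_slm of the 5xFAD-Dp16, 5xFAD, Dp16 and Wild-type sections, Dlg4 had 10, 13, 2 and 7, Grin2b 8, 7, 4 and 9 and Gria3 0, 10, 3 and 3. The intervals included 0 for Dlg4 in every section and for Grin2b in all but the 5xFAD section. They also included 0 for Grin1 and Grin2a in the Wild-type section. Fewer were lower elsewhere, namely Gria2 and Gria3 in CA3_sr over CA3_sp, against 6.71%, Gria3, Grin1 and Slc17a7 in DG_mo over DG_sp, against 8.09%, Gria3 and Grin1 in CA1_so over CA1_sp, against 6.61%, and Gria2 and Slc17a7 in CA3_so over CA3_sp, against 7.42%. For each of these calls except those of Slc17a7, the interval included 0 in at least 1 section. It did so for Gria2 in CA3_sr in all but the 5xFAD section. For Gria3 in CA1_so it did so in all but the 5xFAD-Dp16 section. Gria3 had 5, 6, 22 and 26 UMIs in CA3_sr of the 5xFAD-Dp16, 5xFAD, Dp16 and Wild-type sections. Gria3 had 57.4, 49.7, 27.0 and 87.5 CPM in CA1_sr and 189, 207, 179 and 188 CPM in CA1_sp in that order. Grin2d had at most 8 UMIs in any of these layers and could not be ordered.

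The levels over whole sections are the base of the genotype comparisons. Camk2a had 95.4 CPM in the 5xFAD-Dp16, 128 CPM in the 5xFAD, 119 CPM in the Dp16 and 166 CPM in the Wild-type section. Grin2d had 9.35, 8.94, 13.5 and 15.1 CPM in the same order. Both genes were thus highest in the Wild-type section, and both sections with 5xFAD were low for Grin2d. Grin2b had 33.3, 51.6, 41.9 and 49.3 CPM, so that the 5xFAD-Dp16 section was the low one. Dlg4 had 65.8, 70.9, 58.6 and 78.3 CPM, and its low section was Dp16.

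The remaining genes were ordered alike, with Wild-type highest and 5xFAD-Dp16 lowest. Gria1 had 107, 120, 127 and 142 CPM and Grin1 had 199, 222, 227 and 263 CPM in the 5xFAD-Dp16, 5xFAD, Dp16 and Wild-type sections. Gria2 had 149, 183, 169 and 206 CPM, Gria3 79.9, 99.6, 85.1 and 110 CPM and Grin2a 58.2, 78.6, 70.4 and 91.4 CPM. Slc17a7 had 345, 427, 381 and 457 CPM. CPM share a fixed total, so such a common order can come in part with the unit, which was not tested. The median log2 CPM ratio of all 11033 genes was -0.08 in 5xFAD over Wild-type, -0.03 in 5xFAD-Dp16 over Dp16, -0.13 in Dp16 over Wild-type and -0.07 in 5xFAD-Dp16 over 5xFAD. The ratios below are given relative to these medians. In spots of tissue, fewer cells of a type and less RNA per cell cannot be told apart.

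**Figure D2:**
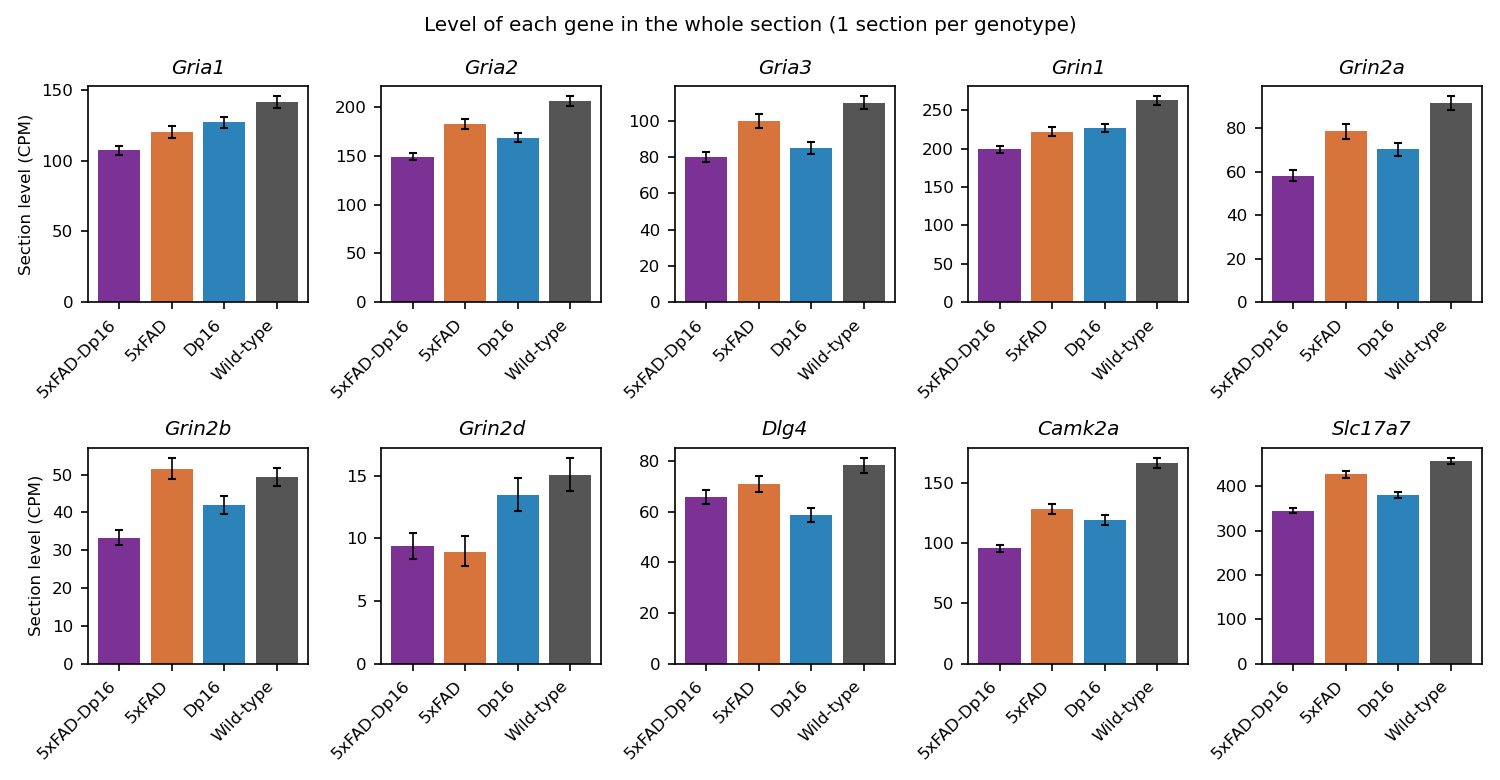
Level of each gene in CPM over the whole section, 1 bar per section, with exact Poisson 95% intervals that cover counting error only. Camk2a stands at 95.4 CPM in the 5xFAD-Dp16 section and 166 CPM in the Wild-type section, and Grin2d at 9.35 and 8.94 CPM in the 5xFAD-Dp16 and 5xFAD sections, below 13.5 and 15.1 CPM in the Dp16 and Wild-type sections.

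The first question was how the 5xFAD genotype went with these genes, read in 2 pairs that share no section. Camk2a and Grin2d were lower past 1.2-fold in both pairs, and no gene of the 10 was higher in either. Camk2a was at -0.29 (-0.35 to -0.23) in 5xFAD over Wild-type and -0.29 (-0.36 to -0.22) in 5xFAD-Dp16 over Dp16. Grin2d was at -0.67 (-0.90 to -0.44) and -0.50 (-0.71 to -0.29). Of all 11033 genes, 8.22% were lower and 9.54% higher in 5xFAD over Wild-type, 6.92% lower and 6.05% higher in 5xFAD-Dp16 over Dp16, and 0.97% were lower in both pairs. The low Grin2d of both pairs was already known when the 10 genes were chosen. The count of 2 therefore cannot be weighed against the share lower in both pairs. Grin2b was lower only in 5xFAD-Dp16 over Dp16, at -0.31 (-0.42 to -0.19), and had 0.15 (0.04 to 0.25) in 5xFAD over Wild-type.

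The other 7 genes stayed within 1.2-fold in both pairs. Their values ran between -0.16 for Grin1 and -0.02 for Slc17a7 in 5xFAD over Wild-type, and between -0.25 for Grin2a and 0.19 for Dlg4 in 5xFAD-Dp16 over Dp16. Grin1, the shared NMDA receptor subunit, was at -0.16 in both pairs. The median of the 10 genes was -0.11 in 5xFAD over Wild-type and -0.19 in 5xFAD-Dp16 over Dp16, with 9 genes below the all-gene median of 0 in each.

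Weighting the 12 regions alike in every section widened the Camk2a ratio to -0.42 (-0.49 to -0.36) in 5xFAD over Wild-type and to -0.42 (-0.50 to -0.35) in 5xFAD-Dp16 over Dp16. On this region-standardised scale 2 genes were lower in 5xFAD over Wild-type, against 7.32% of all genes, and 6 in 5xFAD-Dp16 over Dp16, against 7.65%. The 6 were Gria1 (-0.28), Grin2a (-0.31), Grin2b (-0.33), Grin2d (-0.49), Camk2a (-0.42) and Slc17a7 (-0.27). Slc17a7 lay close to the limit, and was at -0.23 when Hypothalamus, VL and FB were left out of the standardisation. Of the 6, Gria1, Grin2a and Slc17a7 were between -0.25 and -0.12 over the whole section.

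Camk2a lay below the all-gene median of its region in 12 of 12 regions in 5xFAD over Wild-type and in 11 of 12 in 5xFAD-Dp16 over Dp16. In the hippocampus its relative log2 ratio was -0.58 (-0.73 to -0.43) in 5xFAD over Wild-type and -0.28 (-0.45 to -0.11) in 5xFAD-Dp16 over Dp16, and in Cortex SSp -0.73 (-1.02 to -0.44) and -0.44 (-0.73 to -0.15). The exception was the hypothalamus of 5xFAD-Dp16 over Dp16, at 0.21 (-0.20 to 0.63). Of all genes, 8.37% lay below their regional median in at least 10 of 12 regions in 5xFAD over Wild-type and 9.84% in 5xFAD-Dp16 over Dp16. Gria2, Gria3 and Grin1 also reached at least 10 regions in both pairs, with 11, 10 and 11 regions in each. In 5xFAD-Dp16 over Dp16 only, Gria1, Grin2a, Grin2b and Slc17a7 did so too, with 11, 10, 11 and 11 regions. The share of all genes reaching at least 10 regions in both pairs was not computed, so nothing is read from the genes that did.

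Grin2d was lower where it was abundant. In the thalamus its relative log2 ratio was -0.77 (-1.15 to -0.40) in 5xFAD over Wild-type and -0.69 (-1.07 to -0.32) in 5xFAD-Dp16 over Dp16, from 79 and 252 UMIs and from 99 and 158 UMIs. In the hypothalamus it was -0.63 (-1.15 to -0.11) and -0.57 (-1.004 to -0.14). Elsewhere no region held more than 36 UMIs in a section, and the intervals included 0 except in Cortex OLF in 5xFAD over Wild-type, at -0.91 (-1.66 to -0.17). Inhibitory neuron markers moved with this result over the whole section, with a list median of -0.32 in 5xFAD over Wild-type and -0.24 in 5xFAD-Dp16 over Dp16. Of their 7 genes, 5 were lower in 5xFAD over Wild-type and 2 were lower and 1 higher in 5xFAD-Dp16 over Dp16. In the thalamus they summed to 598 CPM in the 5xFAD-Dp16, 579 CPM in the 5xFAD, 791 CPM in the Dp16 and 1401 CPM in the Wild-type section, and in the hypothalamus to 1063, 1392, 1734 and 1317 CPM. Hypothalamic oligodendrocyte markers, 8 genes, summed to 5885, 7224, 6487 and 4097 CPM in the same order, so the makeup of this label also differed between sections. Microglia markers, higher in both pairs, had list medians of 1.06 and 1.11, with 8 and 9 of 9 genes higher. The part of these lists in the Grin2d and Camk2a results was not tested.

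**Figure D3:**
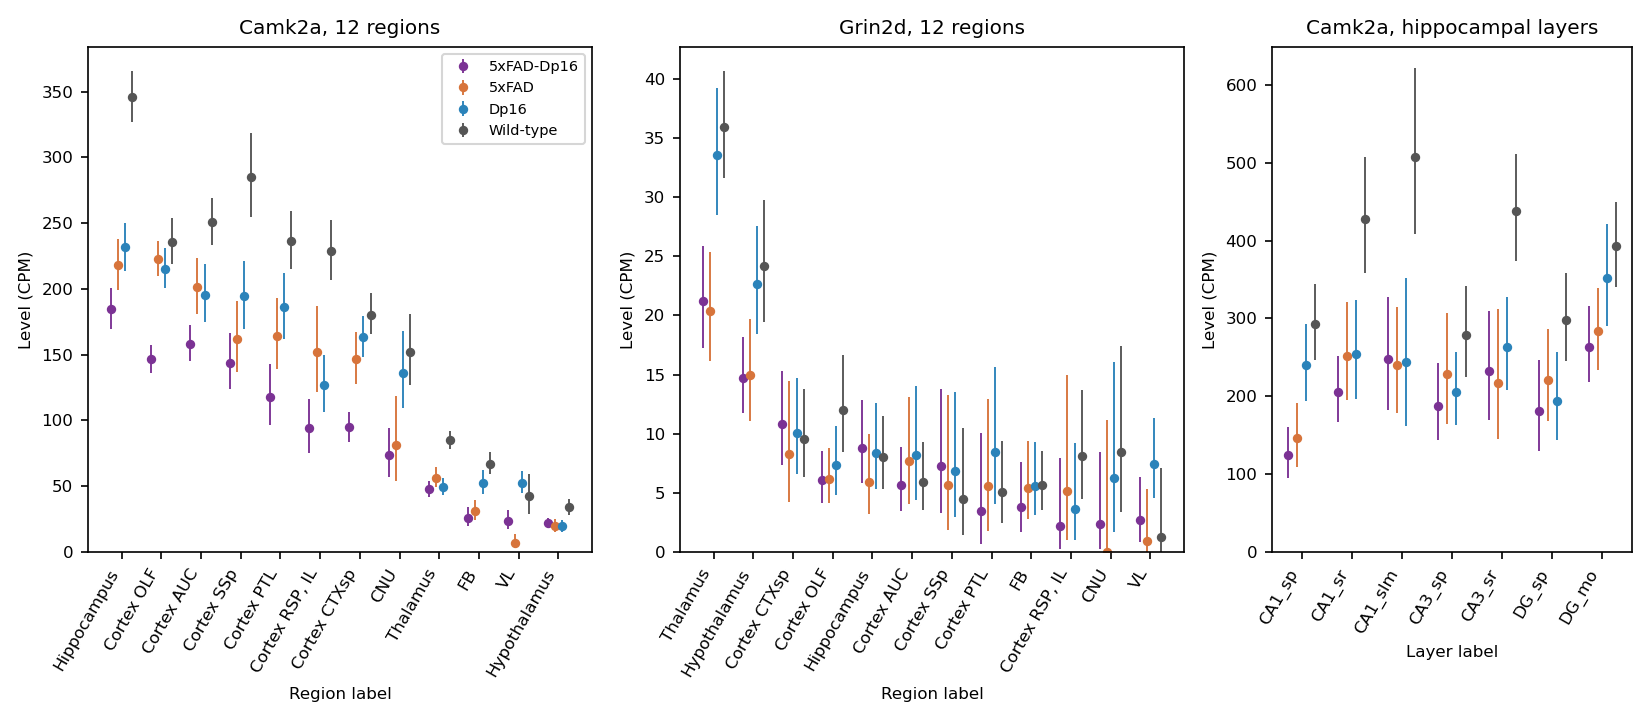
Levels of Camk2a and Grin2d in CPM by region, and of Camk2a by hippocampal layer, 1 point per section with exact Poisson 95% intervals that cover counting error only. Thalamic Grin2d stands at 21.3 and 20.3 CPM in the 5xFAD-Dp16 and 5xFAD sections and at 33.5 and 35.9 CPM in the Dp16 and Wild-type sections, and hippocampal Camk2a is highest in the Wild-type section at 346 CPM.

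The second question was how the Dp16 duplication went with these genes, again in 2 pairs that share no section, although each of these sections also served in a 5xFAD pair. Camk2a was lower in both here too, and it was the only one of the 10 to be so, at -0.35 (-0.41 to -0.29) in Dp16 over Wild-type and -0.35 (-0.42 to -0.28) in 5xFAD-Dp16 over 5xFAD. Dlg4, the PSD-95 gene, was lower in Dp16 over Wild-type at -0.29 (-0.37 to -0.20) but not in 5xFAD-Dp16 over 5xFAD, at -0.03 (-0.12 to 0.05). For 5xFAD-Dp16 over 5xFAD, Grin2b was lower at -0.56 (-0.67 to -0.45) and Grin2a at -0.36 (-0.45 to -0.27), beside -0.10 (-0.21 to 0.00) and -0.25 (-0.33 to -0.17) in Dp16 over Wild-type. In all, 2 of the 10 genes were lower in Dp16 over Wild-type and 3 in 5xFAD-Dp16 over 5xFAD, and none was higher. Of all genes, 10.8% were lower and 13.6% higher in Dp16 over Wild-type, 6.74% lower and 7.7% higher in 5xFAD-Dp16 over 5xFAD, and 1.54% lower in both pairs.

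Grin2d was within 1.2-fold in both Dp16 pairs. It was at -0.03 (-0.22 to 0.16) in Dp16 over Wild-type and 0.14 (-0.11 to 0.38) in 5xFAD-Dp16 over 5xFAD, and Gria1 at -0.02 and -0.09. Gria3 and Slc17a7 were between -0.25 and -0.13 in both pairs. Region-standardised, 1 gene was lower in Dp16 over Wild-type, namely Camk2a at -0.32, against 9.55% of all genes, and 3 in 5xFAD-Dp16 over 5xFAD, namely Grin2a, Grin2b and Camk2a, against 7.51%. The median of the 10 genes over whole sections was -0.15 in Dp16 over Wild-type and -0.23 in 5xFAD-Dp16 over 5xFAD.

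By region, Camk2a lay below the all-gene median in 11 of 12 regions in Dp16 over Wild-type and in 10 of 12 in 5xFAD-Dp16 over 5xFAD. Dlg4 did so in 11 in Dp16 over Wild-type and in 7 in 5xFAD-Dp16 over 5xFAD, and Gria2 in 11 and 10. Slc17a7 did so in 7 and 11. Of all genes, 8.92% reached at least 10 regions in Dp16 over Wild-type and 9.34% in 5xFAD-Dp16 over 5xFAD. The share that did so in both pairs was not computed. The Camk2a exceptions included the region labelled VL, at 0.58 (0.03 to 1.17) in Dp16 over Wild-type and 1.86 (0.70 to 3.25) in 5xFAD-Dp16 over 5xFAD, where the 4 sections had 44, 7, 149 and 33 UMIs in the order 5xFAD-Dp16, 5xFAD, Dp16 and Wild-type.

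Choroid plexus markers differed in all 4 pairs, with list medians of 1.51 in 5xFAD over Wild-type, -0.99 in 5xFAD-Dp16 over Dp16, 2.38 in Dp16 over Wild-type and -0.27 in 5xFAD-Dp16 over 5xFAD. Without expression clusters 12 and 13, Camk2a was at -0.30 in Dp16 over Wild-type and -0.36 in 5xFAD-Dp16 over 5xFAD, and at -0.27 in 5xFAD over Wild-type and -0.33 in 5xFAD-Dp16 over Dp16. The Dlg4 ratio of Dp16 over Wild-type was -0.25 without them and -0.23 when region-standardised, which is within 1.2-fold. Camk2a was within 1.2-fold in 5xFAD over Wild-type without the region labelled Hypothalamus (-0.26), without spots marked plaque and their neighbours (-0.25) and as a mean over spots (-0.24), and likewise in 5xFAD-Dp16 over Dp16 without plaque spots and their neighbours (-0.25). In every alternative tried it kept its sign in all 4 pairs. The median of 10 general neuron markers, Thy1 included, was between -0.06 and 0.02 in the 4 pairs.

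**Figure D4:**
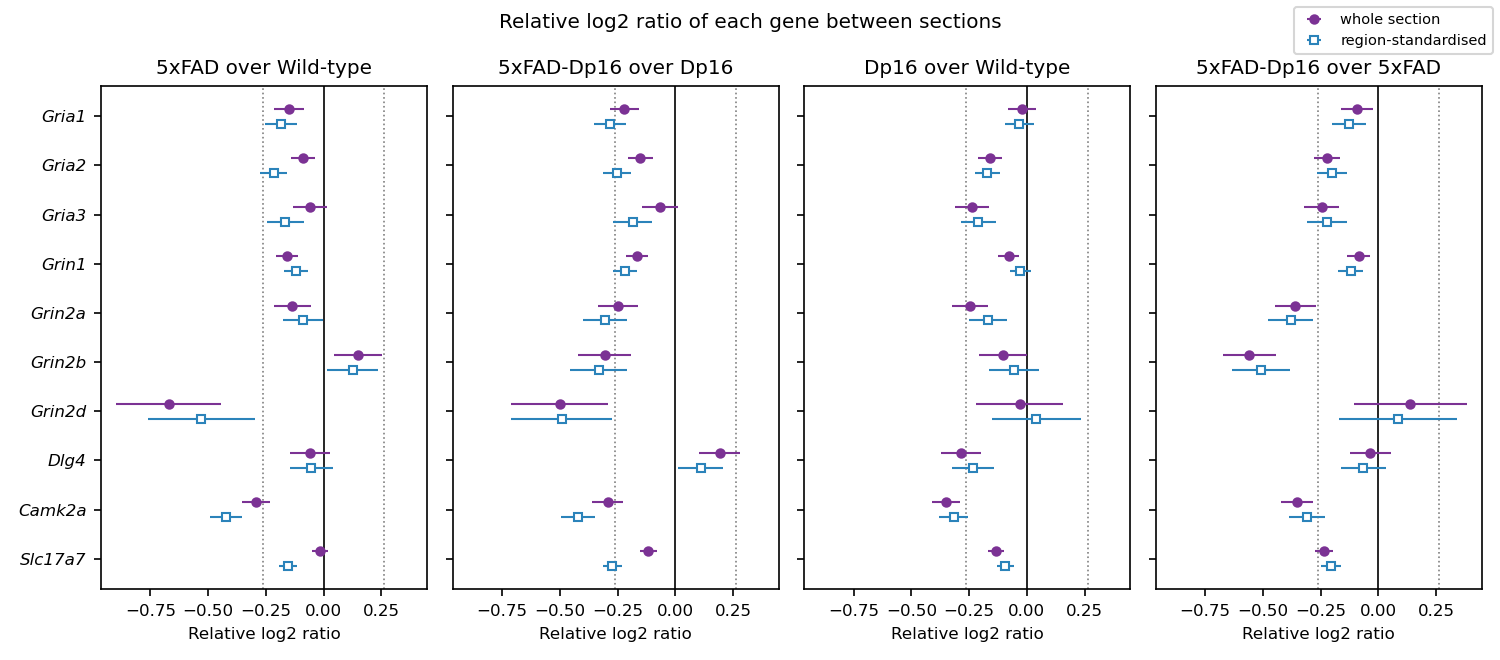
Relative log2 ratio of each gene in the 4 pairs, for whole sections (filled circles) and region-standardised (open squares), with 95% intervals that cover counting error only; dotted lines mark 1.2-fold and the solid line the all-gene median. Camk2a lies left of 0 in all 4 panels, at -0.29, -0.29, -0.35 and -0.35 for whole sections, and Grin2d does so clearly in the 5xFAD pairs at -0.67 and -0.50.

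The 4 genotypes also allow the difference of differences, taken here as how far the 5xFAD-Dp16 over Dp16 ratio exceeds the one of 5xFAD over Wild-type. For Camk2a it was 0.00 (-0.09 to 0.09), the ratio being alike in both pairs. Grin2b stood furthest below 0, at -0.45 (-0.61 to -0.30), and 9.01% of all genes lay at least as far from 0. Dlg4 was at 0.25 (0.13 to 0.38), with 24.9% of all genes as far from 0, and Slc17a7 at -0.10 (-0.15 to -0.05), with 61.1% as far. The interval left out 0 for these 3 of the 10 genes, as it did for 36.8% of all genes, which is close to the same share. It included 0 for the other 7 genes, Grin2d among them at 0.17 (-0.13 to 0.47). The median of the 10 genes was -0.03. Region by region, Grin2b lay below the all-gene median in 5 of 12 regions in 5xFAD over Wild-type and in 11 of 12 in 5xFAD-Dp16 over Dp16. In Cortex PTL its ratio was -1.19 in 5xFAD-Dp16 over Dp16, from 21 and 65 UMIs. There it was 0.56 in 5xFAD over Wild-type, from 61 and 94 UMIs. The contrast was smaller in the hippocampus, at 56.3, 75.2, 65.7 and 74.1 CPM in the 5xFAD-Dp16, 5xFAD, Dp16 and Wild-type sections.

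The third question was local to the plaques. The deposited table marks 396 plaque spots in the 5xFAD-Dp16 section and 324 in the 5xFAD section, and 759 and 628 neighbouring spots. UMIs in marked spots were set against those predicted from unmarked spots of the same region, over 11 regions in the 5xFAD-Dp16 section and 10 in the 5xFAD section with at least 10 spots of each kind. No gene of the 10 was called in both sections. In the 5xFAD-Dp16 section Camk2a was lower in plaque spots, with 86.2 CPM against 108 CPM predicted from unmarked spots, a relative log2 ratio of -0.33 (-0.50 to -0.16). In the 5xFAD section it had 117 CPM against 110 CPM, a ratio of 0.11 (-0.05 to 0.27). These values moved with the matching: summed over all regions without it, the ratio was -0.14 in the 5xFAD-Dp16 and -0.14 in the 5xFAD section, and with regions of at least 30 spots of each kind -0.39 and 0.32. Of all genes, 15.1% were lower and 12.3% higher in plaque spots of the 5xFAD-Dp16 section, and 14.8% lower and 11.7% higher in those of the 5xFAD section, so 1 lower gene of 10 in each was close to the background.

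In the 5xFAD section the lower gene was Grin2d, with 21 UMIs in plaque spots where 45.7 were predicted, a ratio of -1.097 (-1.77 to -0.43). In the 5xFAD-Dp16 section it had 39 UMIs where 43.4 were predicted, at -0.16 (-0.66 to 0.35). In the thalamus Grin2d had 8.19 CPM in plaque and 23.2 CPM in unmarked spots of the 5xFAD section, from 6 and 44 UMIs, and 17.4 and 21.7 CPM in those of the 5xFAD-Dp16 section, from 13 and 58 UMIs. Grin2a was higher in plaque spots of the 5xFAD section, with 276 UMIs where 216 were predicted and a ratio of 0.38 (0.18 to 0.58), and not in those of the 5xFAD-Dp16 section, at -0.03 (-0.24 to 0.18). Here too the matching mattered: without it the Grin2a ratio was 0.31 in the 5xFAD-Dp16 and 0.03 in the 5xFAD section, and with regions of at least 30 spots of each kind 0.18 and 0.52. Slc17a7 was slightly higher in plaque spots of both sections, at 0.17 (0.08 to 0.25) in 5xFAD-Dp16 and 0.14 (0.05 to 0.23) in 5xFAD, within 1.2-fold. Under 8 alternatives its ratio ran between 0.11 and 0.27 in 5xFAD-Dp16 and between -0.05 and 0.19 in 5xFAD, where 1 alternative had the other sign. Gria3 was at 0.15 (-0.03 to 0.33) in 5xFAD-Dp16 and 0.25 (0.08 to 0.43) in 5xFAD, also within 1.2-fold. Under the same alternatives Gria3 ran between 0.14 and 0.35 in 5xFAD-Dp16 and between 0.13 and 0.26 in 5xFAD.

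In the neighbouring spots none of the 10 genes passed 1.2-fold in either section. Camk2a was at -0.21 (-0.34 to -0.08) in the 5xFAD-Dp16 and -0.04 (-0.16 to 0.08) in the 5xFAD section, and Slc17a7 at 0.19 (0.13 to 0.26) and 0.12 (0.05 to 0.19). Microglia markers summed to 2165 CPM in plaque and 688 CPM in unmarked spots of the 5xFAD-Dp16 section, and to 2287 and 738 CPM in those of the 5xFAD section. Neuron markers summed to 4809 and 4064 CPM in plaque and unmarked spots of the 5xFAD-Dp16 section and to 4908 and 4069 CPM in those of the 5xFAD section, not matched by region. The part of these shifts in the values above was not tested. The median plaque spot held 10654 UMIs against 10856.5 in unmarked spots of the 5xFAD-Dp16 section, and 9974.5 against 8662.5 in those of the 5xFAD section.

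**Figure D5:**
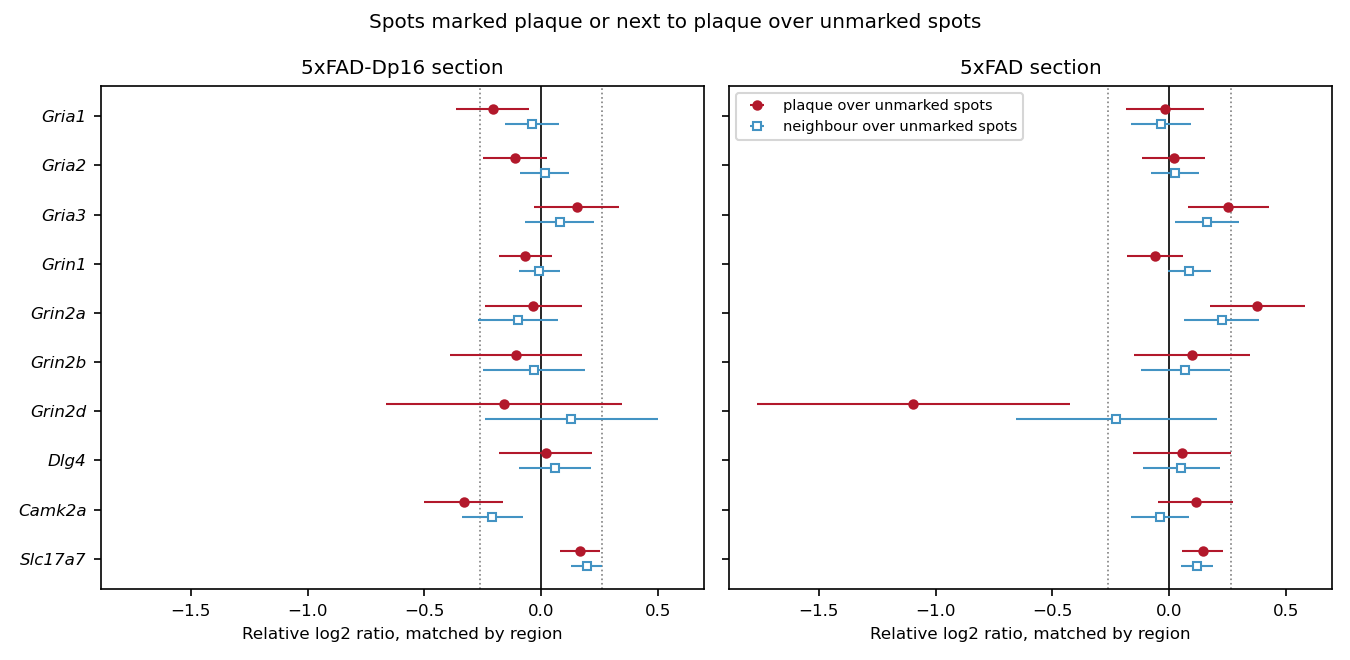
Relative log2 ratio of plaque spots (filled circles) and of their neighbours (open squares) over unmarked spots of the same regions, in the 5xFAD-Dp16 section (left) and the 5xFAD section (right), with 95% intervals that cover counting error only; dotted lines mark 1.2-fold. Camk2a lies at -0.33 on the left and 0.11 on the right, and Grin2d at -0.16 on the left and -1.097 on the right.

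Other genes of the same synapse were taken from 5 lists of 81 genes, 76 of them measured. These lists were chosen with earlier results of these data known, so their counts are not independent of those results. For the 5xFAD pairs, 4 of the 76 were lower past 1.2-fold in both and none was higher in both, against 0.97% lower and 1.55% higher of all genes. The 4 were the kainate receptor gene Grik4 (-0.67 in 5xFAD over Wild-type and -0.29 in 5xFAD-Dp16 over Dp16), the metabotropic receptor gene Grm4 (-0.42 and -0.34), Shisa6 (-0.41 and -0.39), which encodes an AMPA receptor auxiliary protein, and the scaffold gene Homer3 (-0.43 and -0.52). Region-standardised, Grik4 was the only one of the 4 that stayed past 1.2-fold in both pairs, at -0.71 and -0.41. On that scale Grm4 was at -0.16 and -0.21, Shisa6 at -0.28 and -0.25 and Homer3 at -0.24 and -0.33. The kainate receptor gene Grik1 was higher past 1.2-fold in both pairs on that scale, at 0.30 and 0.27. Its whole-section ratios were 0.28 and 0.24, the second within 1.2-fold. The share of all genes higher in both pairs on that scale was not computed. Over whole sections Nrgn, which encodes a calmodulin-binding postsynaptic protein, was at 0.11 and 0.24.

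The counts list by list are read against the 8.22% lower and 9.54% higher of all genes in 5xFAD over Wild-type and the 6.92% and 6.05% in 5xFAD-Dp16 over Dp16. The kainate, delta and remaining ionotropic receptor genes had 1 of 10 lower and 1 higher in 5xFAD over Wild-type and 3 lower and none higher in 5xFAD-Dp16 over Dp16, with medians of -0.20 and -0.22. The metabotropic receptor genes had 3 and 2 of 6 lower, with medians of -0.31 and -0.09. The postsynaptic scaffold and signalling genes had 7 and 2 of 30 lower, with medians of -0.15 and -0.08, and the presynaptic genes 2 and 2 of 18, beside 1 higher in 5xFAD-Dp16 over Dp16, with medians of -0.14 and -0.15. The 2 of 30 and the 2 of 18 are near the background shares. The AMPA receptor auxiliary genes had 2 lower and 2 higher of 12 in 5xFAD over Wild-type and 4 lower in 5xFAD-Dp16 over Dp16, with medians of 0.03 and -0.04. All-gene medians are 0 on this scale.

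Region-standardised, where 7.32% and 7.65% of all genes were lower, the presynaptic genes had 2 of 18 lower in 5xFAD over Wild-type and 8 in 5xFAD-Dp16 over Dp16, with medians of -0.13 and -0.25. The postsynaptic scaffold and signalling genes had 7 and 6 of 30 lower, with a median of -0.14 in both pairs. The other ionotropic receptor genes had 3 and 4 of 10 lower, the metabotropic receptor genes 2 and 2 of 6, and the AMPA receptor auxiliary genes 2 and 3 of 12 lower, with medians for the auxiliary genes of -0.05 and -0.10. Over whole sections Shank3, a scaffold gene, was at -1.41 in 5xFAD over Wild-type but 0.25 in 5xFAD-Dp16 over Dp16: it had 18.0, 12.7, 15.4 and 35.7 CPM in the 5xFAD-Dp16, 5xFAD, Dp16 and Wild-type sections, so the Wild-type section stood apart from the other sections.

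For the Dp16 pairs, 5 of the 76 genes, from lists chosen with earlier results known, were lower in both and 1 was higher. Of all genes, 1.54% were lower and 2.98% higher in both. The higher one was the kainate receptor gene Grik1, at 0.87 (0.63 to 1.101) in Dp16 over Wild-type and 0.82 (0.59 to 1.05) in 5xFAD-Dp16 over 5xFAD. It had 14.4, 8.56, 12.4 and 7.45 CPM in the 5xFAD-Dp16, 5xFAD, Dp16 and Wild-type sections, and it is the only gene of these lists within the duplicated segment, at chr16:87895901-88290863. The lower ones included the NMDA receptor subunit gene Grin2c (-0.73 and -0.43), the metabotropic receptor genes Grm2 (-0.28 and -0.50) and Grm4 (-0.55 and -0.47), and Kalrn (-0.32 and -0.28), which encodes a regulator of dendritic spines. Region-standardised, Grin2c (-0.59 and -0.38), Grm4 (-0.37 and -0.42), Kalrn (-0.29 and -0.28) and Grik1 (0.90 and 0.88) stayed past 1.2-fold in both Dp16 pairs, while Grm2 was at -0.21 and -0.54. Over whole sections Grm4 was lower in all 4 pairs, as Camk2a was, and these pairs share sections. The vesicular transporter gene Slc17a6 was at -0.56 in Dp16 over Wild-type and -0.11 in 5xFAD-Dp16 over 5xFAD.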

How the data were processed

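Visium UMI counts of 4 mouse brain sections, 1 per genotype, were used as deposited: raw counts per gene and spot that the authors made with Space Ranger and Seurat on the mm10 build, per the submitters' processing notes, with versions and settings not stated in those notes. The deposited percent of mitochondrial counts per spot was used only to describe spots. Region labels, expression clusters and plaque marks were taken as deposited, with no account of how they were drawn. RefSeq on GRCm38, which is mm10, gave gene positions and promoters.

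Counts were summed per section, region and plaque status over all deposited spots, with no doublet caller and no filter, and scaled to the section or region total (CPM). Spots were not treated as replicates. Relative log2 ratios subtract the median over the 11033 genes of at least 5 CPM. Whole-section ratios have exact conditional binomial 95% intervals, and region-standardised and plaque ratios have log-scale ones. All intervals cover counting error only. A gene counts as higher or lower past 1.2-fold, and no test was run, with 1 section per genotype. Region-standardised levels weight 12 regions by their pooled share of spots. For counts of 0, a floor of 3 gives the level that they allow, and it does not enter the ratios. A ratio with a count of 0 on 1 side is infinite and counts as past 1.2-fold. Neuron sums leave out Thy1, whose promoter drives the 5xFAD transgenes. The intervals were tried on simulated Poisson counts, which hold counting error only. That checks the calculation and says nothing of the spread between spots, sections or mice.

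The 10 genes, the marker lists and the other gene lists were chosen with earlier results of these data known, among them that Grin2d was low in both 5xFAD pairs. Named beside them were the 3 most alike genes by Pearson r of log2(CPM + 1) and, in each other list, the 3 most abundant genes and those with the highest and lowest mean ratio. A few genes that these rules name are not reported here. Genes of these lists that passed in both pairs of an effect were named after their values were seen. Alternatives were other scalings (TMM factors from edgeR 4.0.16 in R 4.3.3 and median-of-ratios size factors), other gene and spot filters, other region weights and other folds. Tools were Python 3.11.15, numpy 2.4.6, scipy 1.17.1, pandas 2.3.3 and matplotlib 3.10.9.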

Additional observations from a re-analysis of the deposited data

Results flagged for a closer look

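The difference of differences between the 2 5xFAD pairs is given for 2 of the 10 genes because their ratios lay on opposite sides of 0 in the pairs, with 1 section each. For Grin2b it was -0.45, with 33.3, 51.6, 41.9 and 49.3 CPM in the 5xFAD-Dp16, 5xFAD, Dp16 and Wild-type sections. For Dlg4 it was 0.25, with 65.8, 70.9, 58.6 and 78.3 CPM in the same order. Of all genes, 9.01% lay at least as far from 0 as Grin2b and 24.9% as far as Dlg4. Neither difference was tested, since no genotype had a second section. Region-standardised, the values were -0.46 for Grin2b and 0.16 for Dlg4.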

How the results depend on the processing

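No called result changed sign under any alternative. Grin2a in plaque spots of the 5xFAD-Dp16 section, at -0.03 and not called, was at 0.31 without matching by region. Of the values of single genes, 634 moved by less than their interval and 86 by more, and of the summary values 66 stayed close and 29 moved. The number of the 10 genes lower than 1.2-fold in 5xFAD over Wild-type was 2, and it was 1 as a mean over spots, 1 without the region labelled Hypothalamus, 1 without plaque spots and their neighbours, 1 at 1.5-fold and 4 at 1.1-fold. For 5xFAD-Dp16 over Dp16 it was 3, and 6 with region-standardised levels, 5 as a mean over spots, 0 at 1.5-fold and 7 at 1.1-fold. For Dp16 over Wild-type it was 2, and 6 with plain CPM ratios, 4 with TMM factors, 4 with median-of-ratios size factors, 4 with all genes that had a UMI, 1 with region-standardised levels, 1 with region-standardised levels without Hypothalamus, VL and FB, 1 as a mean over spots, 1 without expression clusters 12 and 13, 0 at 1.5-fold and 5 at 1.1-fold. For 5xFAD-Dp16 over 5xFAD it was 3, and 6 with plain CPM ratios, 6 as a mean over spots, 0 at 1.5-fold and 6 at 1.1-fold. In plaque spots of the 5xFAD-Dp16 section it was 1, and 0 without matching by region, 3 with regions of at least 30 spots of each kind, 0 with neighbours added to the unmarked spots, 0 at 1.5-fold and 3 at 1.1-fold. Of the other lists, 5 genes were lower in both Dp16 pairs, and 3 without the region labelled Hypothalamus. For a change of fold or scaling the alternative's own construction moves the count, and for the other alternatives the cause was not tested. Camk2a had a negative ratio in all 4 pairs under 14 of 14 alternatives, between -0.48 and -0.24. Grin2d had one in both 5xFAD pairs under all 14. The alternatives of region-standardised levels without Hypothalamus, VL and FB, and those for the other lists, were chosen after seeing the data. Depth limits Grin2d most, with 233 to 518 UMIs per section. No paired analysis was possible because each genotype had 1 section.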
